A study of Homo sapiens with 17 samples.

Results

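Heat shock applied to JMJD6-depleted PC3M cells was compared with no stress in control PC3M cells. PC3M is an established human prostate cancer line. All 17 libraries of the study measure its RNA as single 3'-end tags per transcript, and 9 of them, deposited in 1 table of authors' normalised counts, bear on this comparison. Heat-shocked siJMJD6 cells (n = 3) had carried an siRNA against JMJD6 for 72 h and were then held at 42 °C for 1 h and left to recover for 2 h. Heat-shocked siNT cells (n = 3) received the same heat and recovery but a non-targeting siRNA, siNT, and unstressed siNT cells (n = 3) carried that siRNA without heat. Every cell therefore carried an siRNA, and heat and knockdown both differ between the first group and the last. None of the 17 libraries is from unstressed siJMJD6 cells, so the effects of heat and of knockdown in siJMJD6 cells cannot be told apart. The heat-shocked siNT cells give the measured response to heat alone, which is printed for many genes but not for all. A gene printed without it may still respond to heat.

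A gene was included when its normalised count was at least 10 in at least 3 of the 6 libraries of heat-shocked siJMJD6 and unstressed siNT cells, which took in 9545 of 13616 genes. Of these, 8032 reached 10 in all 6 libraries, 180 only in siJMJD6 libraries, 158 only in siNT libraries and 1175 in other mixtures. A gene admitted through 1 group alone had to be higher there. By third-highest value, SOCS3 at 10.002 lay just inside the rule and NUDT6 at 9.985 just outside.

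Misfolded protein releases the transcription factor HSF1 from chaperones, after which it binds heat shock elements in promoters and raises genes of the HSP70, HSP40, HSP90, HSP110 and small heat shock protein families. HSP70 machines hold and refold unfolded chains with the help of HSP40 co-chaperones and nucleotide exchange factors, and HSP90 finishes the folding of kinases and receptors. The endoplasmic reticulum (ER) has its own sensors and chaperones. JMJD6 is a JmjC-domain oxygenase known to act on splicing proteins and on the release of paused RNA polymerase, and the study title places it in a feedback circuit with HSF1 and heat shock proteins.

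Each library summed to between 1630644 and 1726645 normalised counts, of which RPS24, for a ribosomal protein, took the most (2.43% to 3.36%). Sequencing depth is not given here. Log2 values correlated across genes at Pearson's r of 0.969 to 0.978 within groups and 0.890 to 0.970 between groups. The first principal component held 60.9% of the variance and set the 3 siJMJD6 libraries (scores 47.5 to 48.6) apart from all 6 siNT libraries (−27.0 to −21.3), while the second held 9.99% and separated heat-shocked siNT (−20.3 to −12.5) from unstressed siNT libraries (13.3 to 21.4), with siJMJD6 libraries between them (−1.38 to 0.55). Summed epithelial markers lay at 3532 to 3784 in heat-shocked siJMJD6, 2910 to 3285 in heat-shocked siNT and 3431 to 3631 in unstressed siNT libraries. Mesenchymal markers summed to 1025 to 1149, 1267 to 1312 and 1284 to 1415 in the same order, and androgen receptor-positive prostate markers to 474 to 504, 275 to 324 and 238 to 301. Of 11 blood and immune markers, 2 were in the table. These are bulk samples, in which fewer cells of a type and less RNA per cell cannot be told apart, and the part of these marker levels in any result below was not tested.

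JMJD6 itself, on chromosome 17 (76712836 to 76726606, GRCh38.p14), followed the labels. It had 9.72, 7.66 and 14.6 normalised counts in heat-shocked siJMJD6 libraries, 209, 210.2 and 253 in heat-shocked siNT libraries and 102, 105 and 104 in unstressed siNT libraries. The 3 groups did not overlap, and the gene was lowest with its siRNA and highest after heat without it. The log2 fold change of heat-shocked siJMJD6 over unstressed siNT cells was -3.21 ± 0.19 (SE; limma, Benjamini-Hochberg adjusted p = 3.45e-16). Heat alone gave 1.10 ± 0.19, adjusted p = 0.000105. For HSF1 (chromosome 8, 144291604 to 144314720) the values were 1471, 1427 and 1364 in heat-shocked siJMJD6 libraries, 1261, 1145 and 1190.3 in heat-shocked siNT libraries and 1200.4, 1199 and 1175 in unstressed siNT libraries. Its message was a little higher in the siJMJD6 libraries than in all the others, by 0.25 ± 0.072 over unstressed siNT cells (adjusted p = 0.00435).

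Between heat-shocked siJMJD6 and unstressed siNT cells, 4501 genes were called at an adjusted p under 0.05 (47.2% of the 9545), 2170 higher (22.7%) and 2331 lower (24.4%), and 713 and 805 of these differed by at least 2-fold. Heat alone, in siNT cells, called 397 genes (4.16%), of which 274 were higher (2.87%) and 123 lower (1.29%). The count of lower genes fell to 65, 73, 70 and 79 without unstressed siNT library 1 or 2 or heat-shocked siNT library 1 or 2. Heat-shocked siJMJD6 against heat-shocked siNT cells called 4486 genes (47.0%), 2109 higher (22.1%) and 2377 lower (24.9%). The comparisons share libraries, so their calls are not independent. The median log2 fold change over all genes was −0.011, −0.0057 and −0.018 in the 3 comparisons, and the median SE was 0.191. No label says that replicates are separate cultures; the p-values therefore rest on the scatter of these libraries, and that scatter may be technical.

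**Figure D1:**
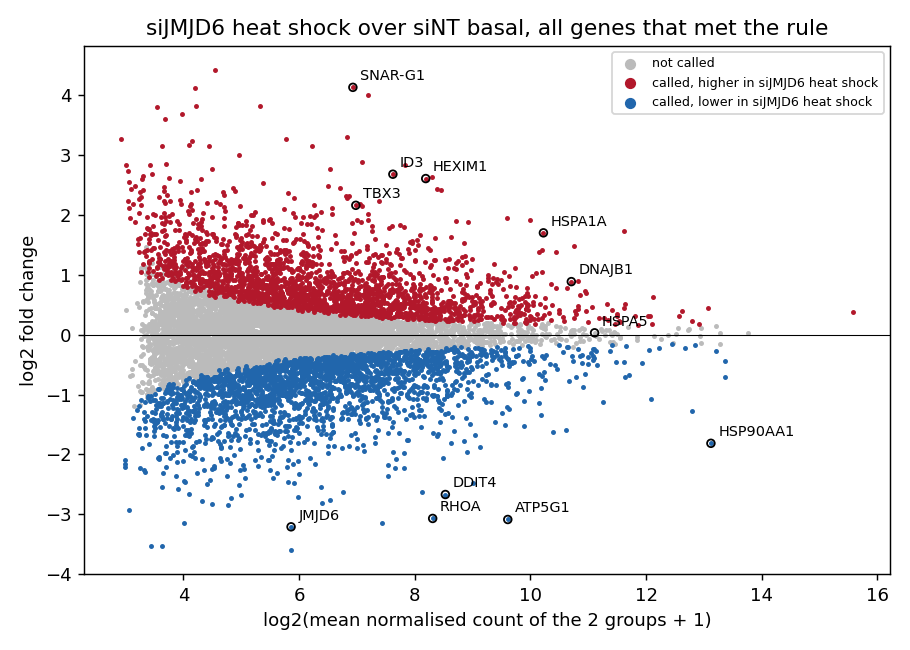
Log2 fold change of heat-shocked siJMJD6 over unstressed siNT cells (vertical axis) against the log2 mean normalised count of the 2 groups plus 1 (horizontal axis), 1 point per gene, red for the 2170 called higher, blue for the 2331 called lower and grey for the rest. HSPA1A sits at 1.70 and DNAJB1 at 0.89 among abundant genes, HSPA5 lies on the zero line, and HSP90AA1 at -1.81 is among the most abundant genes called lower.

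The promoters of 3 heat shock genes and of the ER chaperone HSPA5 are shown because these genes follow different courses below. Each sequence is RefSeq, build GRCh38.p14, read 5′ to 3′ on the gene's strand, and is the part of the 250 bases before the gene's start that holds no annotated exon. Capitals in the first 3 mark a pair of inverted heat shock units, GAANNTTC or TTCNNGAA (each its own reverse complement), and in HSPA5 an ER stress element, CCAAT and CCACG with 9 bases between them. The coordinates are chr6:31815293-31815463 (plus strand) for HSPA1A, chr6:31827488-31827734 (plus) for HSPA1B, chr19:14518421-14518647 (minus) for DNAJB1 and chr9:125241344-125241593 (minus) for HSPA5.
HSPA1A: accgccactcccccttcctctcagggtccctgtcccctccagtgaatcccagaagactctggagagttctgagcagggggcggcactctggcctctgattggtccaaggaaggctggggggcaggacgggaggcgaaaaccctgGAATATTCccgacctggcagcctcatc
HSPA1B: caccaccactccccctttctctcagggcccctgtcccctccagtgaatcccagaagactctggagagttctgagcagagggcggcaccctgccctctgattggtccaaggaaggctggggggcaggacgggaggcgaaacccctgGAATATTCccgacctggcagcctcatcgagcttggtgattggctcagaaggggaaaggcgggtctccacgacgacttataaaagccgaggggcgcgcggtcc
DNAJB1: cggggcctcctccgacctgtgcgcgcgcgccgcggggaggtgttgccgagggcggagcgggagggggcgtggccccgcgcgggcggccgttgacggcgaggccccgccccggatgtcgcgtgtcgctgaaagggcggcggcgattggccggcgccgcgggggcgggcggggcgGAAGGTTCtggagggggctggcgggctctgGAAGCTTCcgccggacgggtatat
HSPA5: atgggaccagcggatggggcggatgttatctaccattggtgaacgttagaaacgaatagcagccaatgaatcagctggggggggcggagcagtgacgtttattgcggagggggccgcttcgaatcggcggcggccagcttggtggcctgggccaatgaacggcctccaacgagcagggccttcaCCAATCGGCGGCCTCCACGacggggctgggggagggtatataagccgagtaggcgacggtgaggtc
Counted from the start, the marked sites begin at −106 in HSPA1A, −105 in HSPA1B, −77 and −47 in DNAJB1 and −66 in HSPA5. Over the 250 bases before a start, on either strand and with overlapping matches counted, the heat shock pair occurred in 11.6% of 35116 RefSeq promoters and 8.85% of 10925 windows of tested genes, of which 7451 of 9545 had an entry. It occurred in 9.59% of windows of genes higher and 8.66% of genes lower in heat-shocked siJMJD6 than in unstressed siNT cells, and in 16.7% of windows of genes raised by heat alone. The ER stress element occurred in 26 of 35116 promoters (0.0740%), in 5 of 323 windows of genes raised by heat alone (1.55%), and in 0 of 2419 windows of genes higher in heat-shocked siJMJD6 cells. The listed promoters of HSP90AA1 held 3 heat shock pairs, those of HSP90AB1 4 and that of CHORDC1 6, and those of HSPH1, BAG3 and TRIM26 held 0. A match is only a match of letters.

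The inducible HSP70 genes were well above the unstressed siNT level in heat-shocked siJMJD6 cells. HSPA1A, the stress-induced HSP70, had 1595, 1981 and 1920.3 normalised counts in heat-shocked siJMJD6 libraries, 1408, 1662 and 1689.9 in heat-shocked siNT libraries and 565, 552 and 564 in unstressed siNT libraries. Both heat-shocked groups lay far above every unstressed library and overlapped each other. The log2 fold change over unstressed siNT cells was 1.70 ± 0.084 in siJMJD6 cells (adjusted p = 5.22e-18) and 1.50 ± 0.084 in siNT cells (adjusted p = 6.15e-16). Set directly against heat-shocked siNT cells, HSPA1A differed by 0.21 ± 0.084 (adjusted p = 0.0414), a call that was lost without unstressed siNT library 1 (adjusted p = 0.0533), heat-shocked siNT library 1 (0.262) or siJMJD6 library 2 (0.219) or 3 (0.171), with a value of 0.12 without heat-shocked siNT library 1. Its neighbour HSPA1B had 839.9, 979 and 917 in heat-shocked siJMJD6, 1442, 1572 and 1369 in heat-shocked siNT and 404, 382 and 424 in unstressed siNT libraries. Here the 3 groups were fully apart, with siJMJD6 cells in the middle. HSPA1B was 1.17 ± 0.082 above unstressed siNT cells (adjusted p = 6.92e-14) and -0.68 ± 0.082 relative to heat-shocked siNT cells (adjusted p = 2.18e-08). HSPA1A and HSPA1B are near-identical copies, and how the authors' counting split reads between them is uncertain.

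The HSP70 partners DNAJB1, BAG3 and HSPH1 took the middle course of HSPA1B. DNAJB1, the HSP40 that brings substrates to HSP70, had 2157, 2111 and 2239 normalised counts in heat-shocked siJMJD6, 2653, 3088 and 3356 in heat-shocked siNT and 1182, 1259 and 1083 in unstressed siNT libraries, with no overlap between groups. It was 0.89 ± 0.078 above unstressed siNT cells (adjusted p = 1.69e-11), against 1.36 ± 0.078 for heat alone, and the direct difference of the heat-shocked groups was -0.48 ± 0.078 (adjusted p = 5.18e-06). BAG3, a nucleotide exchange factor that links HSP70 to autophagy, had 509, 600.2 and 599.9, 965, 1078 and 1216 and 267, 278 and 247 in the same order. It was 1.11 over unstressed siNT cells (adjusted p = 6.71e-12), against 2.03 for heat alone, and lay -0.93 ± 0.093 relative to heat-shocked siNT cells. HSPH1, the inducible HSP110, stood at 999.7 to 1039, 1272 to 1361 and 570.1 to 601, 0.81 above unstressed siNT cells (adjusted p = 5.54e-11) and 1.19 for heat alone. The constitutive HSP70 HSPA8 had 329.6, 363 and 365, 270.4, 299 and 392 and 302, 358 and 289.6 normalised counts, overlapping groups with no call (adjusted p = 0.253 against unstressed siNT cells).

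As groups, 7 of 16 tested genes of the HSP70, HSP110 and exchange factor list were higher in heat-shocked siJMJD6 than in unstressed siNT cells and 1, the ER-resident HYOU1, was lower (-0.48; 2 were lower without siJMJD6 library 3), with a median log2 fold change of 0.25. Heat alone raised 7 and lowered 0. Of 15 HSP40 genes, 4 were higher and 2 lower (median 0.11), and heat alone raised 6 and lowered 0. DNAJB2 was above the unstressed siNT level in both heat-shocked groups, at 1.02 in siJMJD6 cells (adjusted p = 1.36e-07) and 1.26 for heat alone. DNAJB6 had 230.4, 274 and 257 in heat-shocked siJMJD6, 434, 448 and 504 in heat-shocked siNT and 362, 330.4 and 344 in unstressed siNT libraries. It was below the unstressed level in heat-shocked siJMJD6 cells (-0.45, adjusted p = 0.000302) and above it with heat alone (0.42, adjusted p = 0.00715). DNAJB12, an HSP40 of the ER membrane, fell by 1.17 on the log2 scale (adjusted p = 0.000502). Among all genes, 22.7% were higher and 24.4% lower in heat-shocked siJMJD6 than in unstressed siNT cells, and 2.87% were higher and 1.29% lower with heat alone, and the counts of each list below stand against these shares. Across the lists, 9 members met the rule through 1 group alone, so their direction was fixed by it. HSPA2, FOSB, IFIT2 and TGFB2 did so through the siJMJD6 libraries, all 4 called higher, and ZFP36, CXCL1, SAA2, SESN1 and GINS1 through the unstressed siNT libraries, the first 3 of them called lower.

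The HSP90 genes were below the unstressed level. HSP90AA1, the inducible HSP90, had 4159.7, 3725 and 3932 normalised counts in heat-shocked siJMJD6 libraries, 22185, 20544 and 19998 in heat-shocked siNT libraries and 14041, 15283 and 12336 in unstressed siNT libraries. Every siJMJD6 library lay far below every siNT library, and the siNT groups did not overlap. The log2 fold change over unstressed siNT cells was -1.81 ± 0.07 (adjusted p = 6.81e-21), a level of 0.284 times the unstressed one, and that over heat-shocked siNT cells was -2.41 ± 0.07 (adjusted p = 1.1e-24). Heat alone raised it by 0.59 ± 0.07 (adjusted p = 1.58e-07), a call lost under quantile normalisation (adjusted p = 0.395). HSP90AB1, the constitutive partner, had 9319.6, 8713 and 8804 in heat-shocked siJMJD6, 13483, 14188 and 13630.0 in heat-shocked siNT and 12584, 12935 and 11005 in unstressed siNT libraries. It too was lower in siJMJD6 cells than in either siNT group, at -0.44 ± 0.065 against unstressed siNT cells (adjusted p = 7.94e-07), and heat alone gave no call (0.18, adjusted p = 0.129).

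Of 16 genes for HSP90 and its co-chaperones, 8 were lower and 5 higher in heat-shocked siJMJD6 than in unstressed siNT cells (median −0.16), with 5 lower without siJMJD6 library 2. Heat alone raised 8 and lowered 0, with 5 raised without heat-shocked siNT library 1 or 2. STIP1, which passes clients from HSP70 to HSP90, had 371, 369 and 390.1, 719, 709.7 and 709 and 554, 624 and 558 normalised counts in heat-shocked siJMJD6, heat-shocked siNT and unstressed siNT libraries. The siJMJD6 values lay below both siNT groups (-0.62 ± 0.085 against unstressed siNT cells, adjusted p = 2.5e-07). CHORDC1, an HSP90 co-chaperone, is an exception with 102, 93.4 and 118, 84, 87 and 114 and 57.3, 48 and 44.9 in that order. Its heat-shocked groups overlapped and both exceeded the unstressed libraries, at 1.05 ± 0.16 for siJMJD6 (adjusted p = 2.06e-06) and 0.90 ± 0.16 for siNT cells (adjusted p = 0.000251).

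**Figure D2:**
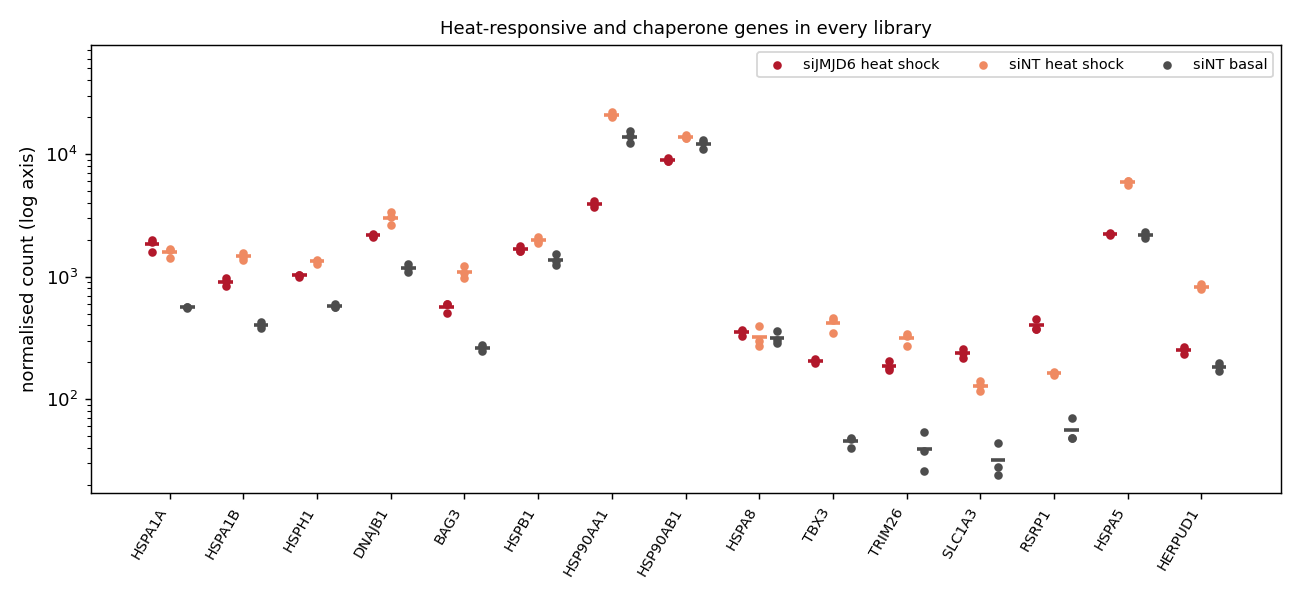
Normalised counts (log axis) of 15 chaperone and heat-responsive genes in each library, with 3 points per group and a bar at the group mean, for heat-shocked siJMJD6 (red), heat-shocked siNT (orange) and unstressed siNT libraries (grey). In HSPA1A and HSPA1B the siJMJD6 points sit above the unstressed ones, in HSP90AA1 at 3725 to 4159.7 they lie far below both siNT groups, in SLC1A3 and RSRP1 they are the highest, and in HSPA5 they overlap the unstressed points.

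Small heat shock proteins hold unfolded chains without ATP, and HSPB8 and HSPB1 were above the unstressed level. HSPB8, a partner of BAG3, had 201, 295 and 222 normalised counts in heat-shocked siJMJD6, 182, 258 and 276 in heat-shocked siNT and 105, 88 and 112 in unstressed siNT libraries. The heat-shocked groups overlapped and both exceeded all unstressed libraries, by 1.22 ± 0.14 (adjusted p = 1.14e-08) in siJMJD6 and 1.21 ± 0.14 (adjusted p = 1.95e-07) in siNT cells. HSPB1 was 0.30 above unstressed siNT cells (adjusted p = 0.00183), with 1627 to 1760.5 against 1233 to 1527 normalised counts. Unlike HSPB8, it took a middle course, with 1889.5 to 2092.5 in heat-shocked siNT libraries (0.54 for heat alone, adjusted p = 7.21e-06). Relative to heat-shocked siNT cells HSPB1 was at -0.24 ± 0.077 (adjusted p = 0.00983), a call lost under quantile normalisation (adjusted p = 0.0819). CLU, the secreted chaperone clusterin, had 339.9, 306 and 351, 149, 129.5 and 122 and 98.2, 104 and 77.4 normalised counts in heat-shocked siJMJD6, heat-shocked siNT and unstressed siNT libraries. Its siJMJD6 libraries were the highest, 1.83 ± 0.13 above unstressed siNT cells (adjusted p = 4.75e-14) and 1.31 ± 0.13 above heat-shocked siNT cells (adjusted p = 1.53e-10). In all, 3 of 5 tested genes of this list were higher and 0 lower (median 0.37).

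Outside the chaperones, the strongest heat-raised gene in control cells lay between the unstressed and the heat-shocked control levels in heat-shocked siJMJD6 cells. TBX3, a developmental transcriptional repressor, had 205, 215 and 197 normalised counts in heat-shocked siJMJD6, 443, 461 and 347 in heat-shocked siNT and 48.5, 40.3 and 47 in unstressed siNT libraries. The groups did not overlap and siJMJD6 cells lay in the middle. It was 2.16 ± 0.13 over unstressed siNT cells (adjusted p = 4.17e-16), 4.47-fold, and -1.01 ± 0.13 relative to heat-shocked siNT cells (adjusted p = 3.9e-08). TRIM26, a ubiquitin ligase of the TRIM family, had 174, 179 and 207 in heat-shocked siJMJD6, 329.7, 343 and 270.5 in heat-shocked siNT and 37.7, 25.7 and 54.1 in unstressed siNT libraries. It followed TBX3 in order, at 2.28 ± 0.17 over unstressed siNT cells (adjusted p = 1.49e-13) and -0.74 ± 0.17 relative to heat-shocked siNT cells (adjusted p = 0.000354).

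Other genes with the largest heat responses in siNT cells took different courses in siJMJD6 cells. PLAUR, the urokinase receptor, had 429, 416 and 422, 589, 708 and 634 and 202, 192 and 183 normalised counts in heat-shocked siJMJD6, heat-shocked siNT and unstressed siNT libraries, a middle course with 1.13 over unstressed siNT cells (adjusted p = 4.21e-12) and -0.60 relative to heat-shocked siNT cells (adjusted p = 2.39e-06). ZFAND2A, a zinc finger protein linked to the proteasome, had 73, 61.7 and 86.3, 149.9, 185 and 168 and 61.3, 44.4 and 47.4 in the same order, near the unstressed level, at 0.52 over it (adjusted p = 0.0077; without siJMJD6 library 3, 0.0698). C7orf60 had 144, 183 and 162, 195, 189.8 and 182 and 64.3, 58.3 and 80.3 in that order, 1.26 over unstressed siNT cells and -0.22 relative to heat-shocked siNT cells (adjusted p = 0.182). MICB, a stress ligand of natural killer cells, was 1.41 over unstressed siNT cells (adjusted p = 3.67e-08), with 70.7 to 81.4 against 25.3 to 30.4 normalised counts and 84.1 to 116 in heat-shocked siNT cells. A higher level with both heat and knockdown than with heat alone was seen in SLC1A3 and RSRP1. SLC1A3, a glutamate and aspartate transporter, had 257, 215 and 240.3 in heat-shocked siJMJD6, 130.4, 139.6 and 117 in heat-shocked siNT and 24.3, 28.1 and 43.9 in unstressed siNT libraries. It was 2.89 ± 0.16 over unstressed siNT cells (adjusted p = 1.95e-16) and 0.88 ± 0.16 over heat-shocked siNT cells (adjusted p = 3.69e-05). RSRP1, an arginine- and serine-rich nuclear protein, took the same order with 372, 452 and 375, 163, 167 and 159 and 48.5, 48.5 and 69.7, at 2.84 and 1.28 (adjusted p = 1.44e-18 and 8.07e-10). These genes were taken for their rise in heat-shocked siNT libraries, which also enter the comparison of the heat-shocked groups.

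Of 15 heat-induced genes outside the chaperones, a list chosen from earlier results of these libraries and so no independent evidence of direction, 11 were higher and 3 lower in heat-shocked siJMJD6 than in unstressed siNT cells (median 0.88). JMJD6 is 1 of those lower. UBB, a polyubiquitin gene, had 2281, 2235 and 2283, 2078, 2081 and 1858 and 1392, 1527 and 1365 normalised counts in heat-shocked siJMJD6, heat-shocked siNT and unstressed siNT libraries. Both heat-shocked groups lay above the unstressed one (0.67 in siJMJD6 cells, adjusted p = 1.53e-09). IER5, an activator of HSF1, had 231, 269 and 268, 169, 207 and 222 and 103, 104 and 112 in the same order and was 1.26 ± 0.12 over unstressed siNT cells (adjusted p = 1.25e-10).

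The JmjC demethylases KDM5A and PHF8 were above the unstressed level in both heat-shocked groups. KDM5A had 310.5, 304 and 292 normalised counts in heat-shocked siJMJD6, 298, 268 and 231 in heat-shocked siNT and 139.7, 114 and 103 in unstressed siNT libraries. PHF8 had 219.6, 231 and 234, 194, 257 and 251 and 95.3, 81.6 and 91.6 in the same order. In each the heat-shocked groups overlapped and lay above every unstressed library, at 1.35 ± 0.12 for KDM5A (adjusted p = 1.78e-11) and 1.34 ± 0.12 for PHF8 (adjusted p = 4.02e-11). Against heat-shocked siNT cells neither was called (0.19 ± 0.12 and -0.023 ± 0.12, adjusted p = 0.184 and 0.893). Of 23 tested JmjC oxygenases, 8 were higher and 5 lower in heat-shocked siJMJD6 than in unstressed siNT cells (median 0.11), and MINA, a ribosomal oxygenase, was among the lower (-1.61, adjusted p = 1.56e-07). JMJD6, the siRNA target, is also counted among the lower.

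The ER folding genes had a median near zero in this comparison. HSPA5, the ER form of HSP70 whose promoter is shown above, had 2281, 2181 and 2237 normalised counts in heat-shocked siJMJD6, 5562, 6044 and 6022 in heat-shocked siNT and 2185, 2298 and 2076 in unstressed siNT libraries. The siJMJD6 and unstressed siNT libraries overlapped, and all 3 heat-shocked siNT libraries were far above them. The difference between heat-shocked siJMJD6 and unstressed siNT cells was 0.032 ± 0.067 (adjusted p = 0.727), that for heat alone 1.43 ± 0.067 (adjusted p = 3.28e-18) and that between the heat-shocked groups -1.39 ± 0.067 (adjusted p = 1.98e-18). HERPUD1, of the ER degradation machinery, had 255, 269 and 232, 866, 799 and 824 and 187, 170.2 and 197 in the same order. It was a little above unstressed siNT cells (0.44 ± 0.097, adjusted p = 0.000278), against 2.16 ± 0.097 for heat alone.

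Of 24 tested ER folding and unfolded protein response genes, 8 were higher and 4 lower in heat-shocked siJMJD6 than in unstressed siNT cells, with 2 lower without unstressed siNT library 1, and the median was 0.040. Heat alone raised 16 and lowered 0 (median 0.51), and 14 were lower in heat-shocked siJMJD6 than in heat-shocked siNT cells. CALR, the glycoprotein chaperone calreticulin, had 1564, 1687 and 1642, 2633, 2779 and 2713 and 2121, 2109.7 and 2010.5 normalised counts in heat-shocked siJMJD6, heat-shocked siNT and unstressed siNT libraries. It fell below the unstressed level in siJMJD6 cells (-0.35, adjusted p = 5.98e-05) and rose with heat alone (0.38, adjusted p = 0.000233). The HSP40 DNAJB11 and the selenoprotein SELK, of ER-associated degradation, were above the unstressed level in both heat-shocked groups. DNAJB11 gave 0.54 in siJMJD6 and 0.66 in siNT cells, and SELK 1.01 and 0.61, each called.

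The genes of the integrated stress response, in which ATF4 drives amino acid supply and CHOP (gene DDIT3) promotes death of stressed cells, were mostly below the unstressed level. ATF4 had 289, 251 and 241 normalised counts in heat-shocked siJMJD6, 560.3, 567 and 586 in heat-shocked siNT and 789.6, 749 and 667 in unstressed siNT libraries. The groups did not overlap and siJMJD6 libraries were lowest, at -1.50 ± 0.092 against unstressed siNT cells (adjusted p = 1.67e-15). DDIT3 had 149, 128 and 173, 324, 285 and 288 and 169, 174 and 139 in the same order. Its siJMJD6 libraries overlapped the unstressed ones (-0.10 ± 0.12, adjusted p = 0.515), while heat alone raised it (0.90 ± 0.12, adjusted p = 2.78e-06). DDIT4, an inhibitor of mTORC1, had 102, 102 and 94 in heat-shocked siJMJD6, 331, 459 and 398 in heat-shocked siNT and 586, 702 and 627 in unstressed siNT libraries. Its log2 fold change over unstressed siNT cells was -2.67 with heat and knockdown (adjusted p = 4.74e-20) and -0.70 with heat alone (adjusted p = 3.71e-05).

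Of 27 tested ATF4 and CHOP targets, 15 were lower and 3 higher in heat-shocked siJMJD6 than in unstressed siNT cells (median −0.46), beside 24.4% lower and 22.7% higher among all genes. SLC7A11, the cystine transporter, had 93.2, 91.6 and 85.2 normalised counts in heat-shocked siJMJD6 libraries and 357, 369 and 349 in unstressed siNT libraries (-1.98 ± 0.11, adjusted p = 5.92e-17). MTHFD2, a mitochondrial folate enzyme, was -1.26 ± 0.095 (adjusted p = 3.64e-13). Heat alone called neither SLC7A11 (-0.11) nor MTHFD2 (0.14). The aminoacyl-tRNA synthetases of the cytosol, many of them ATF4 targets, had 10 of 20 members lower and 0 higher (1 higher without siJMJD6 library 2; median −0.34). GARS, the glycine enzyme, had 151, 146 and 153 in heat-shocked siJMJD6, 392, 366 and 300.4 in heat-shocked siNT and 323, 363 and 353 in unstressed siNT libraries (-1.20 ± 0.11, adjusted p = 2.2e-11). LARS, CARS and YARS gave -0.98, -0.88 and -0.49, each called. With heat alone CARS was higher (0.35, adjusted p = 0.0484), and LARS and YARS were not called.

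**Figure D3:**
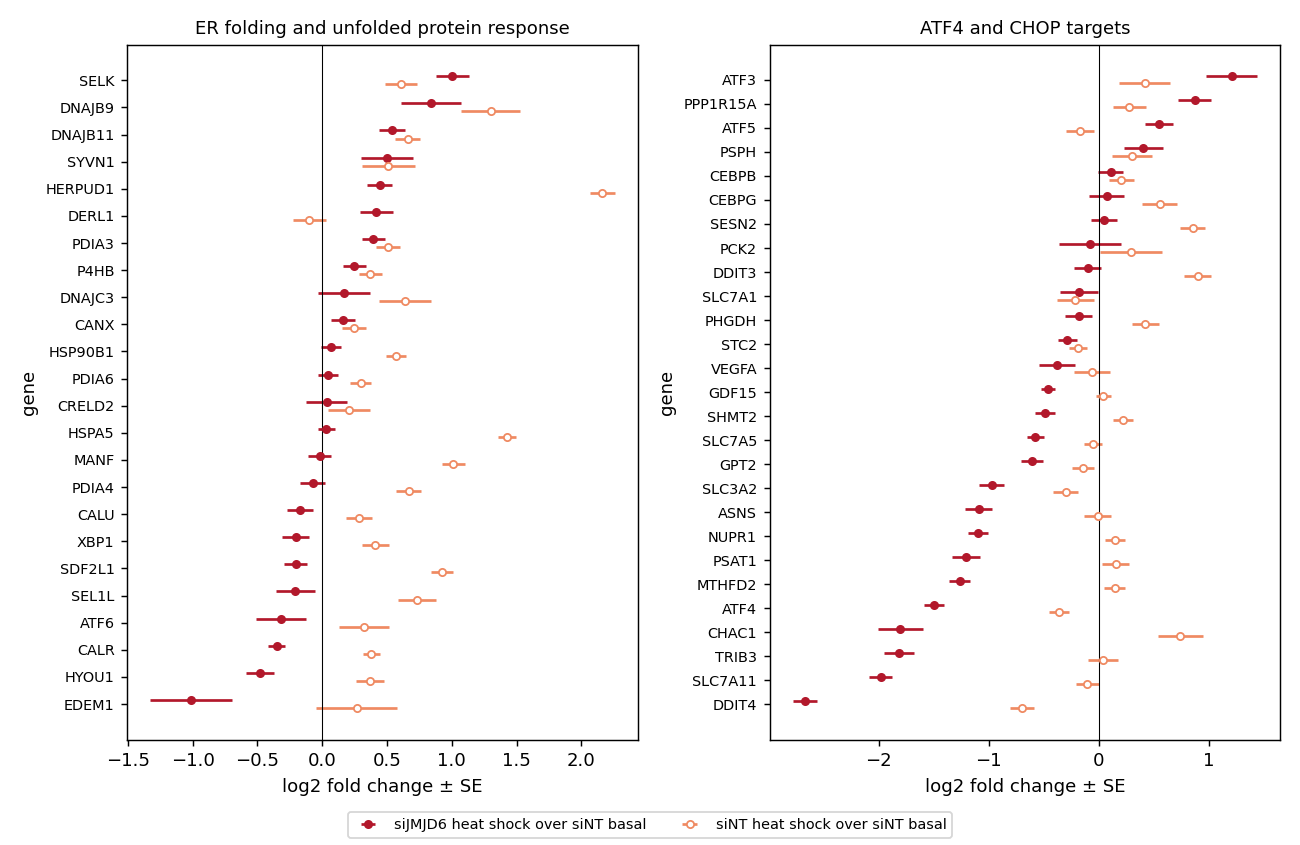
Log2 fold change ± SE of the 24 tested ER folding genes (left) and 27 tested ATF4 and CHOP targets (right), filled red for heat-shocked siJMJD6 over unstressed siNT cells and open orange for heat-shocked siNT over unstressed siNT cells. Most ER genes have an orange point above zero and a red point near or below it, as HSPA5 at 0.032 against 1.43, while ATF4 targets such as SLC7A11 (-1.98) and DDIT4 (-2.67) extend to the left in red.

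Chaperones of mitochondria and of nascent chains took differing courses. HSPD1, the mitochondrial HSP60, had 1568, 1478 and 1585 normalised counts in heat-shocked siJMJD6, 3638, 3742 and 3566 in heat-shocked siNT and 3408, 3320.0 and 3394 in unstressed siNT libraries. The siJMJD6 libraries were far below both siNT groups, at -1.13 ± 0.066 against unstressed siNT cells (adjusted p = 4.03e-16), and heat alone gave no call (0.11, adjusted p = 0.431). Its co-chaperonin HSPE1 and the mitochondrial HSP70 HSPA9 were at -0.63 and -0.49, and GRPEL1, the exchange factor of HSPA9, at 0.33, each called. Of 12 such genes 3 were lower and 1 higher (median −0.14). That is 25.0% lower and 8.33% higher, beside 24.4% and 22.7% among all genes, so the share lower was near that of all genes. In TRiC and prefoldin, which help to fold actin and tubulin, 6 of 14 were lower (3 without siJMJD6 library 1) and 2 higher (median −0.13). The prefoldin subunit VBP1 had 19.2, 23.6 and 28.4 in heat-shocked siJMJD6, 159.6, 159 and 179.9 in heat-shocked siNT and 135, 162 and 127 in unstressed siNT libraries. It was -2.54 ± 0.16 (adjusted p = 3.4e-15), while the subunits PFDN5 and PFDN1 were higher (0.46 and 0.65) and PFDN2 lower (-0.48).

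Degradation and redox genes moved in mixed directions. Of 34 proteasome subunits, 13 were lower and 5 higher (median −0.10). The higher count was 2 without unstressed siNT library 1 or 3 or siJMJD6 library 1, and 3 without unstressed siNT library 2 or siJMJD6 library 2. PSMD8, of the regulatory lid, had 259, 249.9 and 241 normalised counts in heat-shocked siJMJD6, 809, 804 and 822 in heat-shocked siNT and 779.7, 854 and 780.2 in unstressed siNT libraries (-1.68 ± 0.084, adjusted p = 6.75e-18). PSMC5, PSMB5 and PSMB6 were at -1.08, -0.74 and -0.69. Of 20 genes of ubiquitin handling and autophagy 6 were higher and 5 lower (median 0.14), and WIPI1, an early autophagy factor, had 10.7, 7.61 and 11.7 against 56.5, 47.2 and 49.7 in unstressed siNT libraries (-2.26, adjusted p = 1.32e-09), with UBQLN1, a ubiquitin receptor, at -0.52. Of 19 NRF2 targets 10 were lower and 5 higher (median −0.35). GSR and TALDO1, which supply reduced glutathione and pentose phosphates, were at -1.11 and -0.94. FTL, the ferritin light chain, had 1636, 1570.0 and 1706 in heat-shocked siJMJD6, 754, 661 and 616 in heat-shocked siNT and 554, 611 and 735 in unstressed siNT libraries, and so went up (1.38 ± 0.09, adjusted p = 1.09e-14). All 3 tested metallothioneins of 10 listed, which bind zinc and copper, were lower, MT1E at -2.81 ± 0.24, MT1X at -1.52 ± 0.18 and MT2A at -0.75 ± 0.083. With heat alone MT1E was also lower (-1.39, adjusted p = 0.000204), and MT1X and MT2A were not called.

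Most proliferation genes were lower. Of 28 mitosis and G2/M genes, 23 were lower and 0 higher in heat-shocked siJMJD6 than in unstressed siNT cells (median −0.71), beside 24.4% lower among all genes, and heat alone called 0 of 28. AURKA, a spindle pole kinase, had 104, 95.8 and 98 normalised counts in heat-shocked siJMJD6, 244, 267 and 330.4 in heat-shocked siNT and 257, 247 and 229 in unstressed siNT libraries. The siNT groups overlapped and the siJMJD6 libraries lay well below them (-1.29 ± 0.12, adjusted p = 4.38e-11). PLK1, a kinase of mitotic entry, was at -1.59 ± 0.17, BIRC5, a subunit of the chromosomal passenger complex, at -0.97 ± 0.093, and PRC1, which bundles the midzone of the spindle, at -2.71 ± 0.23, each called. Of 24 DNA replication genes 11 were lower and 2 higher (median −0.53). TYMS, thymidylate synthase, had 87.9, 104 and 116 against 356, 314 and 290.2 in unstressed siNT libraries (-1.64 ± 0.11, adjusted p = 5.69e-14), and UNG, RRM1 and MCM7 were at -1.19, -1.37 and -1.06.

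Of 17 growth arrest and p53 targets 5 were higher and 6 lower (median −0.13). CDKN2C, an inhibitor of the kinases CDK4 and CDK6, had 100.3, 101 and 90.2 normalised counts in heat-shocked siJMJD6, 119, 101 and 96.5 in heat-shocked siNT and 41.3, 40.9 and 44.6 in unstressed siNT libraries. Its heat-shocked groups overlapped and both exceeded the unstressed one (1.18 ± 0.15 in siJMJD6 cells, adjusted p = 1.05e-07). BTG1, an antiproliferative factor, gave 0.70, and the death genes PMAIP1 and BBC3 gave -1.40 and -1.23, each called. With heat alone BTG1 was higher (0.50, adjusted p = 0.0012), and PMAIP1 and BBC3 were not called.

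Several targets of TGF-beta and BMP signalling were higher. Of 19 TGF-beta and BMP response genes 8 were higher and 3 lower (median 0.48), beside 22.7% higher among all genes, and heat alone called 0. TGFB2, 1 of the 8, met the rule through the siJMJD6 libraries alone, so it could not have been lower. ID3, an inhibitor of basic helix-loop-helix factors and a direct BMP target, had 305, 383 and 329 normalised counts in heat-shocked siJMJD6, 34.6, 43.1 and 47 in heat-shocked siNT and 63.2, 38.6 and 57 in unstressed siNT libraries. The siNT groups overlapped, and every siJMJD6 library was far above them (2.68 ± 0.17, adjusted p = 2.36e-15). ID1 and ID2 were at 1.45 ± 0.11 and 2.00 ± 0.2, and FST, an antagonist of activin and BMP, at -1.38 ± 0.21, each called. Of 13 interferon response genes 6 were higher and 0 lower (median 0.27), beside the same 22.7%, and 1 of the 6, IFIT2, met the rule through the siJMJD6 libraries alone. ISG15, a ubiquitin-like modifier, had 657, 596 and 646 in heat-shocked siJMJD6, 345, 347 and 311 in heat-shocked siNT and 331, 335 and 279.5 in unstressed siNT libraries (1.01 ± 0.095, adjusted p = 8.18e-11). ISG20, an exonuclease, and IFI6 were at 1.98 ± 0.19 and 1.70 ± 0.25, each called. IFIT2 had 15.7, 16.9 and 14.7 in siJMJD6 libraries against 1.89, 2.12 and 1.32 in unstressed siNT libraries.

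Of 12 NF-kB and acute phase genes 5 were lower and 2 higher (median −0.34), and CXCL1 and SAA2 among the 5 met the rule through the unstressed siNT libraries alone, so they could not have been higher. SAA1, an acute phase protein, had 12.8, 11.9 and 31.3 normalised counts in heat-shocked siJMJD6, 35.7, 44.7 and 22.3 in heat-shocked siNT and 90.8, 92.8 and 114 in unstressed siNT libraries. Both heat-shocked groups were below the unstressed one and overlapped each other (-2.47 ± 0.27 in siJMJD6 cells, adjusted p = 2.25e-09, and -1.55 ± 0.27 in siNT cells). S100A9, a calcium-binding alarmin, went against them at 1.20 ± 0.21, and CXCL1, a neutrophil chemokine, was at -2.36 ± 0.4, each called. With heat alone S100A9 was lower (-0.93, adjusted p = 0.00411) and CXCL1 was not called (adjusted p = 0.247). SAA2, a near copy of SAA1, was at -2.77, and at −1.73 without siJMJD6 library 1. Of 22 immediate-early genes 7 were higher and 6 lower (median 0.052). FOSB, among the higher, met the rule through the siJMJD6 libraries alone, and ZFP36, among the lower, through the unstressed siNT libraries alone. ZFP36L1, an mRNA decay factor, had 348, 280.4 and 296 against 172, 124 and 150.0 in unstressed siNT libraries (1.05), and IER3 and the phosphatase DUSP5 were lower (-0.70 and -1.06).

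Among regulators of transcription elongation, HEXIM1, which holds the elongation kinase P-TEFb inactive, had 401, 569 and 531 normalised counts in heat-shocked siJMJD6, 79.1, 101 and 93.6 in heat-shocked siNT and 74.2, 67.7 and 103 in unstressed siNT libraries. The siNT groups overlapped and all siJMJD6 libraries were far above them, at 2.61 ± 0.15 over unstressed siNT cells (adjusted p = 1.35e-16). BRD2, a bromodomain reader of acetylated histones, was 1.00 ± 0.088 in siJMJD6 and 0.40 ± 0.088 in siNT cells after heat, both called. Of 16 genes of this list 7 were lower and 4 higher (median 0.078, positive although more were called lower). JMJD6, the siRNA target, is counted among the lower. Of 26 splicing regulators 8 were lower and 7 higher (median −0.036). HNRNPA1 had 364, 402 and 374 against 761, 773 and 859.7 in unstressed siNT libraries (-1.07 ± 0.084, adjusted p = 9.57e-13), HNRNPD and SRSF3 were also lower (-0.74 and -0.85), and LUC7L3, of the U1 snRNP, was higher (0.83). With heat alone LUC7L3 was also higher (0.37, adjusted p = 0.0172), and HNRNPA1, HNRNPD and SRSF3 were not called.

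Metabolic and ribosomal lists were mixed. Of 25 hypoxia and glycolysis genes 13 were lower and 5 higher (median −0.27). NDRG1 had 2756, 2922 and 2687 normalised counts in heat-shocked siJMJD6 and 5742, 6332 and 5485 in unstressed siNT libraries (-1.07 ± 0.069, adjusted p = 5.95e-15), with the glycolytic enzyme ENO1 at -0.70 and the mitophagy receptor BNIP3 at -1.25. ADM, the vasodilator adrenomedullin, rose instead, with 213, 209 and 209.9 against 55, 56.5 and 58.5 (1.88 ± 0.15, adjusted p = 9.21e-13). Of 22 cholesterol synthesis genes 6 were lower and 4 higher (median −0.10), with CYP51A1, INSIG1 and FDFT1 at -1.48, -1.18 and -0.84, and HMGCS1 at 0.84. Of 43 proteins of the large ribosomal subunit 11 were higher (7 without siJMJD6 library 3) and 6 lower (median 0.066), with RPLP2 and RPL36 at 0.44 and 0.40 and RPL27A and RPL18 at -0.70 and -0.36. Of 26 ribosome biogenesis factors 11 were lower and 5 higher (2 without unstressed siNT library 2; median −0.21), with NPM1, FBL, PES1 and POLR1A at -0.87, -0.77, -0.62 and -1.33.

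**Figure D4:**
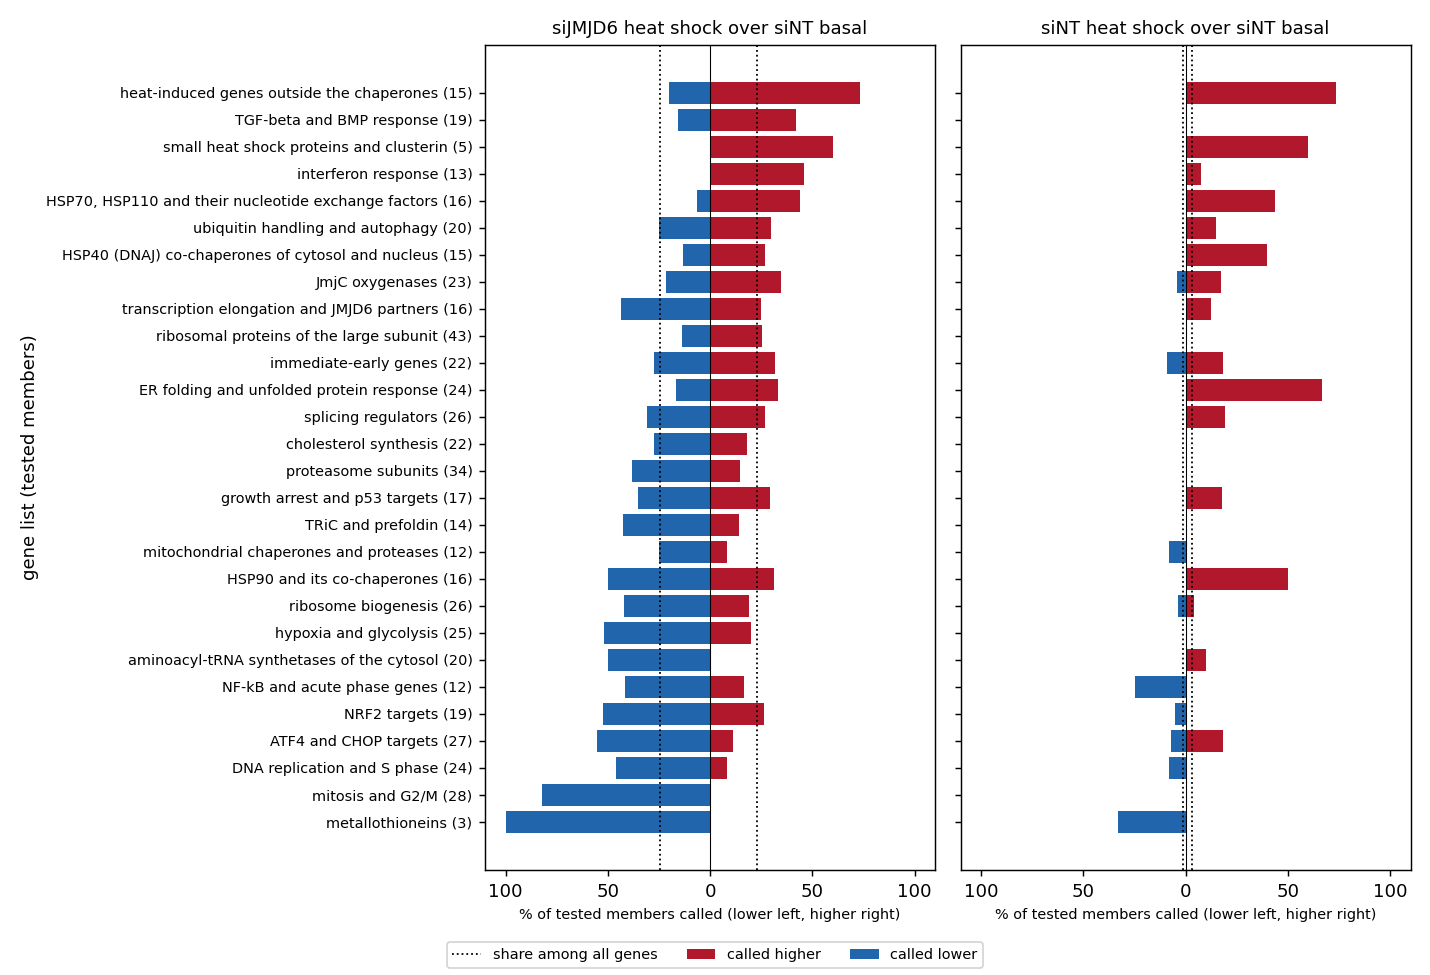
Share of the tested members of each gene list called lower (blue, to the left) and higher (red, to the right), in percent, for heat-shocked siJMJD6 over unstressed siNT cells (left panel) and heat-shocked siNT over unstressed siNT cells (right panel). Dotted lines mark the shares among all genes, 24.4% and 22.7% on the left and 1.29% and 2.87% on the right. Mitosis genes reach 23 of 28 lower on the left and 0 on the right, and ER folding genes reach 16 of 24 higher on the right and 8 on the left.

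Counts of identity markers stand beside 22.7% higher and 24.4% lower among all genes. Of 9 tested epithelial markers 2 were higher (1 without unstressed siNT library 3 or siJMJD6 library 3) and 1 lower (median 0.052), and the desmosomal DSP was at -0.80 ± 0.12 and the keratin KRT8 at 0.97 ± 0.21. Of 10 mesenchymal markers 3 were higher and 2 lower (median 0.15), and the higher count was 1 without unstressed siNT library 3 or siJMJD6 library 1 or 2. COL1A2, a collagen chain, had 44.6, 64 and 73.5 normalised counts in heat-shocked siJMJD6, 220.3, 230.3 and 254 in heat-shocked siNT and 301, 329 and 295 in unstressed siNT libraries (-2.36 ± 0.14, adjusted p = 3.73e-16), and fibronectin, FN1, was at -1.30 ± 0.15. FN1 had 58.2, 52.2 and 74.5, 88.9, 83.6 and 84.1 and 178.6, 136.6 and 141.7 in the same order. Both heat-shocked groups thus lay below every unstressed library. HOXB13, a prostate homeobox factor, had 401, 380.2 and 428, 199, 233 and 237 and 160.1, 200.4 and 159 in the same order (1.22 ± 0.11, adjusted p = 3.51e-11). Of 3 tested androgen receptor-positive prostate markers, HOXB13 was the 1 higher, and it made up most of their summed level in the siJMJD6 libraries. SLC45A3, a prostate membrane transporter, was the 1 lower, with 44.5, 59.5 and 41.1 in siJMJD6 against 60.6, 69.3 and 83.8 in unstressed siNT libraries (-0.56, adjusted p = 0.0142; without unstressed siNT library 3, 0.0848, or siJMJD6 library 3, 0.0799). The 1 tested blood and immune marker, CD68, was not called (0.18, adjusted p = 0.544).

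The largest rises over unstressed siNT cells were taken among called genes averaging 50 or more whose libraries did not overlap. SNAR-G1 and SNAR-F, small RNAs that bind NF90, had 264, 214 and 211 and 275, 283 and 264 normalised counts in heat-shocked siJMJD6 libraries, against 13.4, 8.3 and 15.7 and 16.2, 12.3 and 21.1 in unstressed siNT libraries. Their log2 fold changes were 4.13 ± 0.23 and 4.00 ± 0.24 (adjusted p = 1.55e-16 and 8.59e-16), although reads of this multi-copy family cannot be placed with certainty. DHRS2, a dehydrogenase, had 172, 237 and 208 in heat-shocked siJMJD6, 7.6, 16.8 and 21.2 in heat-shocked siNT and 18.8, 19.4 and 20.9 in unstressed siNT libraries. Only the siJMJD6 libraries stood apart (3.31 ± 0.25, adjusted p = 3.64e-13). The kinase PSKH1 was at 3.26, the histone gene HIST1H2BD at 3.15, the pentraxin receptor NPTXR at 2.77 and FAM43A at 2.63, besides SLC1A3, RSRP1 and ID3 above. Of these 10 genes, heat alone called SLC1A3, RSRP1 and SNAR-F (0.83, adjusted p = 0.0385). PCYOX1L was among the largest rises over heat-shocked siNT cells (3.11) and stood at 2.46 over unstressed siNT cells.

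The largest falls were chosen in the same way. ATP5G1, a gene for subunit c of the mitochondrial ATP synthase, had 171, 173 and 147 normalised counts in heat-shocked siJMJD6, 1601, 1517 and 1349 in heat-shocked siNT and 1435, 1430.0 and 1323 in unstressed siNT libraries. It was -3.09 ± 0.087 (adjusted p = 8.32e-25), about 0.118 of the unstressed level, with no call for heat alone (0.09). RHOA, a small GTPase of the actin cytoskeleton, had 75.2, 58.7 and 66.6 in heat-shocked siJMJD6, 518, 559.5 and 524 in heat-shocked siNT and 548, 536 and 614 in unstressed siNT libraries. It likewise fell with no call for heat alone (-3.07 ± 0.11, adjusted p = 3.57e-22). The inositol phosphate kinase ITPK1 had 9.7, 9.78 and 4.83 in siJMJD6 libraries against 94.5, 127 and 97.1 in unstressed siNT libraries (-3.60), and met the rule for inclusion through the unstressed siNT libraries alone, which fixed its direction. The microtubule protein EML4 was at -3.15, the thioesterase LYPLA1 at -2.76 and PRR11 at -2.63, besides MT1E, PRC1 and DDIT4. RNU5F-1, a U5 small nuclear RNA gene, was at -2.47 over unstressed siNT cells and -3.11 over heat-shocked siNT cells.

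**Figure D5:**
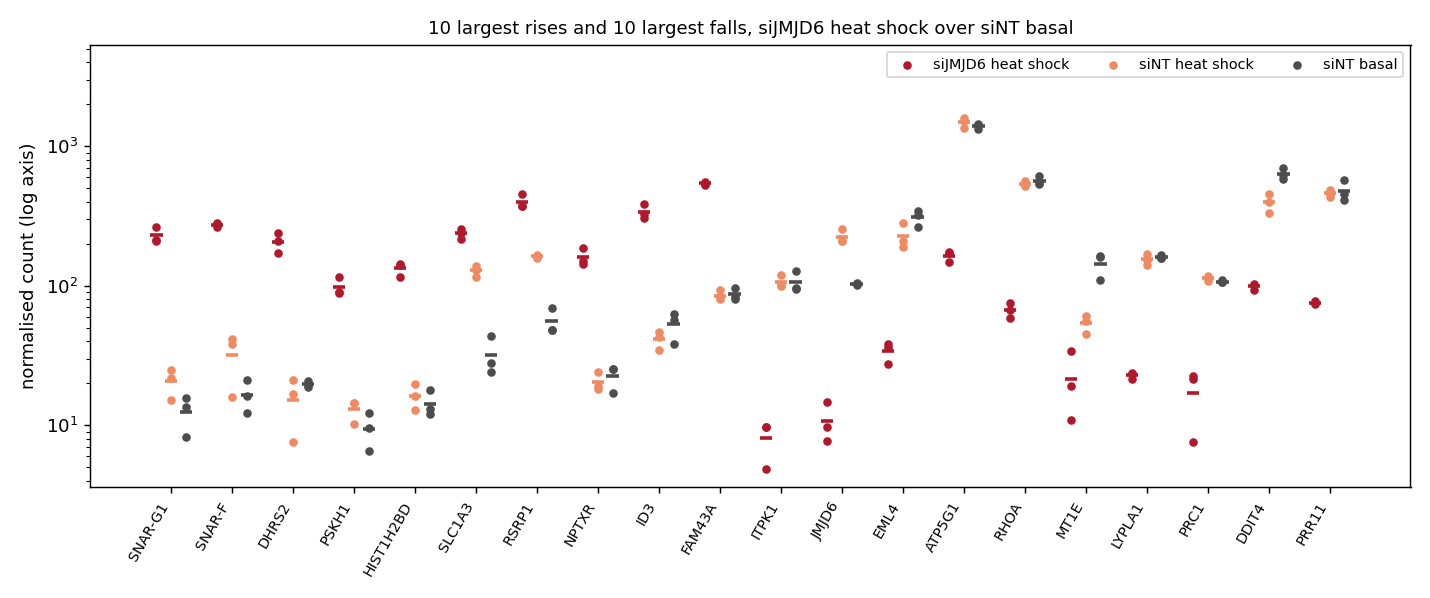
Normalised counts (log axis) in each library of the 10 genes with the largest rises (left) and the 10 with the largest falls (right) in heat-shocked siJMJD6 over unstressed siNT cells, 3 points per group with a bar at the mean, in red for heat-shocked siJMJD6, orange for heat-shocked siNT and grey for unstressed siNT libraries. The genes were chosen for this difference; the orange points lie near the grey ones for most genes, while heat alone was called for SNAR-F, SLC1A3, RSRP1, JMJD6, MT1E and DDIT4.

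Falls with heat alone were few, and their course in siJMJD6 cells varied. DGAT2, an enzyme of triglyceride synthesis, had 41.3, 47.9 and 49 normalised counts in heat-shocked siJMJD6, 30.8, 37 and 31.8 in heat-shocked siNT and 91, 117 and 89.8 in unstressed siNT libraries. It was below the unstressed level in both (-1.08 ± 0.18 with knockdown, adjusted p = 8.81e-06, and -1.54 ± 0.18 without). CDC42EP2, an effector of the GTPase CDC42, and DFFB, the nuclease of apoptosis, were also lower in heat-shocked siJMJD6 cells (-0.66 ± 0.19 and -1.02 ± 0.2, adjusted p = 0.00502 and 8.06e-05). The call of DFFB with heat alone (adjusted p = 0.00403) was lost without heat-shocked siNT library 1 (0.0558). The genes of this paragraph were taken for their fall from the unstressed siNT libraries, which also enter the comparison with heat-shocked siJMJD6 cells. PIGW, of GPI anchor synthesis, had 120.4, 159 and 141, 48.2, 67.3 and 68.1 and 104, 113 and 113 in that order. Its fall with heat (-0.85 ± 0.15, adjusted p = 0.000249) has no counterpart call in heat-shocked siJMJD6 cells, where the difference was 0.34 ± 0.15 (adjusted p = 0.0632), called higher without heat-shocked siNT library 1 (adjusted p = 0.0408) or siJMJD6 library 1 (0.0316) and in the fit of the 6 libraries of these groups (0.0359).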

How the data were processed

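Per the labels' protocols, libraries were made from 100 ng of RNA with the Lexogen QuantSeq FWD kit, which reads 1 tag near the 3' end of a transcript. Per the submitters' processing notes, FastQC 0.11.2, STAR 2.6.0 and HTSeq were used on build hg38; annotation, strand setting, scaling method and depth are not given in these sources, and reads of overlapping or antisense genes may not be separable. The deposited values are the authors' normalised counts (a signal, not whole numbers). Low values lay within 0.1 of whole steps in 98.8% and 100.0% of cases in heat-shocked siNT library 1 and siJMJD6 library 3, but in 19.4% to 24.8% elsewhere (1 library could not be assessed), so reads were not recovered and no count model was used. The MG132 table, normalised separately, was not used.

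Log2(value + 1) was fitted with limma 3.58.1 (R 4.3.3, eBayes with trend) over all 9 libraries, which share 1 spread per gene, and p-values were adjusted by Benjamini-Hochberg over 9545 genes per comparison. Fold changes are on that scale, which understates the change of low genes. The rule for named genes took a panel of 16, the largest non-overlapping rises and falls with a mean of at least 50 (10 and 10 over unstressed siNT cells, 12 and 6 with heat alone, 6 and 6 between heat-shocked groups) and up to 4 called members of each of 32 lists. HYOU1 was named outside it, after its value was seen. Some genes that the rule took are not reported here. Of 656 list genes, 620 were in the table, 23 by an older symbol. Members and lists were chosen with earlier results of these data known. The fit was tested on simulated whole counts with the same dispersion for every gene. The deposited values are not of that kind, so this does not check the calls made here. Same-numbered libraries deviated together weakly at most (r = −0.021 to 0.099, against −0.083 to 0.047 for different numbers), so replicate numbers were not used as pairs. Between the heat-shocked groups, same-numbered pairs were at 0.099, 0.017 and 0.041. Alternatives changed the pseudocount (10), filter, scaling, libraries fitted and replicate block, and left out each library.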

Additional observations from a re-analysis of the deposited data

How the results depend on the processing

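The count of genes called between heat-shocked siJMJD6 and unstressed siNT cells lay between 3928 and 4549 when any 1 library was left out (higher 1795 to 2214, lower 2009 to 2335), and between 4509 and 4769 under a pseudocount of 10, other filters, median ratio, TMM (chosen after seeing the data) or quantile scaling, a fit of 6 libraries or a replicate block. Between the heat-shocked groups it lay between 3903 and 4634 with a library left out, and between 4484 and 4813 under the other settings. Heat alone called 270 to 423 genes with a library left out (higher 193 to 273, lower 65 to 150). The labels do not pair replicate numbers, and only 4 of 9 libraries correlated best with their own number; with the replicate block the counts were 4516, 412 and 4522, and the block gave PIGW a call over unstressed siNT cells (adjusted p = 0.049), as did the fit of 6 libraries (0.0359).

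Reversed signs were all of effects near zero that were not called in the main setting. With 1 library left out, HSPA5 over unstressed siNT cells ranged between −0.0053 (without unstressed siNT library 3) and 0.068, DDIT3 between −0.21 and 0.0081 (without siJMJD6 library 2), and DFFB between the heat-shocked groups lay between −0.29 and 0.0093 (without heat-shocked siNT library 3). With heat alone, HSPA8 was −0.0014 (median ratio), −0.0010 (quantile), −0.0075 (TMM), −0.025 and −0.055 (without unstressed siNT library 1 or 3) and −0.15 (without heat-shocked siNT library 3), up to 0.12 (without heat-shocked siNT library 1), and HSF1 was −0.044 (quantile), −0.0054 (TMM), −0.0021 (without unstressed siNT library 3) and −0.029 (without heat-shocked siNT library 1), up to 0.040 (without heat-shocked siNT library 2). The cause was not tested. Depth per library is unknown, so no interval from counting error could be given, and 3 libraries per group limit the precision.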
